A study of Mus musculus with 24 samples.

Results

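The genes of fibroblast growth factor (FGF) signalling were followed through the late culture of mouse retinal organoids, small aggregates of retinal tissue grown from pluripotent stem cells. The set holds 37 protein-coding genes out of the 126602 features in the deposited counts, of which 46603 are annotated genes and 21624 of those protein-coding. It was chosen by symbol, as every gene named Fgf with a number (22 genes), the receptors Fgfr1 to Fgfr4, the feedback inhibitors Spry1 to Spry4, Spred1 to Spred3 and Dusp6 (8 genes), and the ETS transcription factors Etv1, Etv4 and Etv5. RNA was sequenced from 24 single organoids, 6 each at day 20 (D20), D22, D25 and D30 of differentiation, all from 1 independent experiment. All organoids came from wild-type E14Tg2a mouse embryonic stem cells, carried the genotype label Control, were cut into pieces during culture by the trisection protocol and received the synthetic retinoid EC23 for a few days well before D20, and only water as a solvent was added. They grew in medium with fetal bovine serum and without added FGF in the methods given, and the stem cells had been kept with PD0325901, an inhibitor of the kinase MEK, before differentiation. The sample titles at D22, D25 and D30 carry the word Ctrl and those at D20 do not, and the titles do not say what it stands for. In comparisons with D20, whatever this word marks cannot be told apart from the day. Since the organoids share 1 experiment and 1 cell line, p-values measure the spread between organoids and not between differentiations.

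FGFs are signals that bind receptor tyrosine kinases together with heparan sulfate, and much of their effect runs through the RAS, RAF, MEK and ERK kinases. Active signalling switches on genes that damp it again, among them the Sprouty and Spred proteins, which restrain RAS and RAF, and Dusp6, a phosphatase that removes the activating phosphates from ERK. In the retina, FGFs are known for roles in specifying the neural retina, in progenitor division and, later, in the survival of photoreceptors and the injury response of Müller glia.

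Feature counts summed to between 13634846 and 19477108 reads in an organoid, so that 3 counts correspond to between 0.154 and 0.22 normalized CPM, the count scaled to a common library total by the TMM method of edgeR. This limit covers counting error only. The label retina was checked against 10 retinal markers, all of which were counted, with summed levels between 1573 and 2905 CPM in the 24 organoids. From D20 to D30, 2 of these 10 rose and 6 fell. Crx had the highest mean of them (811.6 CPM), and Crx, Nrl and Rcvrn are also among the photoreceptor markers used below. Between D20 and D30 the median sum of 9 retinal progenitor markers went from 1209 to 338.1 CPM, with 8 of the 9 lower and none higher, that of 8 Müller glia markers from 587.3 to 2541 CPM, with 6 higher and 1 lower, and that of 8 astrocyte and oligodendrocyte markers from 81.57 to 805 CPM, with 6 higher and 1 lower. The median sum of 7 photoreceptor markers went from 1002 to 5094 CPM, with 6 higher and none lower, and that of 6 mesenchyme and vessel markers from 10.86 to 54.13 CPM, with 4 of 5 tested higher. The largest part of the astrocyte and oligodendrocyte sum was Gfap, with a mean of 271 CPM over the 24 organoids and Pdgfra next at 30.59 CPM. The study used GFAP as a hallmark of reactive gliosis of Müller glia, and names astrocytes among the cell types that such organoids lack. This sum is therefore no measure of astrocytes or oligodendrocytes. Telencephalon markers summed to between 8.038 and 354.2 CPM. In whole organoids, fewer cells of a type and less RNA per cell cannot be told apart, and the part of cell composition in the results given here was not tested.

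Of the 37 genes, 22 averaged at least 10 normalized counts and entered edgeR's quasi-likelihood test, where p-values were adjusted by Benjamini-Hochberg across the 46949 features that passed this filter and called under 0.01. From D20 to D30, 13 of the 22 rose and 3 fell, where 28.8% of the tested protein-coding genes rose, 16.5% fell and 26.8% of all tested features changed in either direction. The genes that fell were Fgf15, Fgf9 and Fgf11. The genes that rose were the ligands Fgf1 and Fgf2, the intracellular factors Fgf12 and Fgf13, the receptors Fgfr1 and Fgfr2, the inhibitors Spry2, Spry4, Spred1, Spred3 and Dusp6, and the ETS factors Etv1 and Etv5. The median log2 fold change of the 22 was 0.72, beside 0.15 over the tested protein-coding genes, and since a gene could pass the filter through its highest timepoint alone, this is a description and not a test of the set. A joint test of the 4 timepoints called 16 of the 22, with 27.2% of all tested features and 48.0% of the protein-coding genes called. Fgf7, Fgf14, Fgfr3, Spry1, Spred2 and Etv4 were not past the threshold in any edgeR comparison of all organoids, and of these Spry1 was past it in the joint test by DESeq2 and by edgeR without D22 replicate 2.

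**Figure D1:**
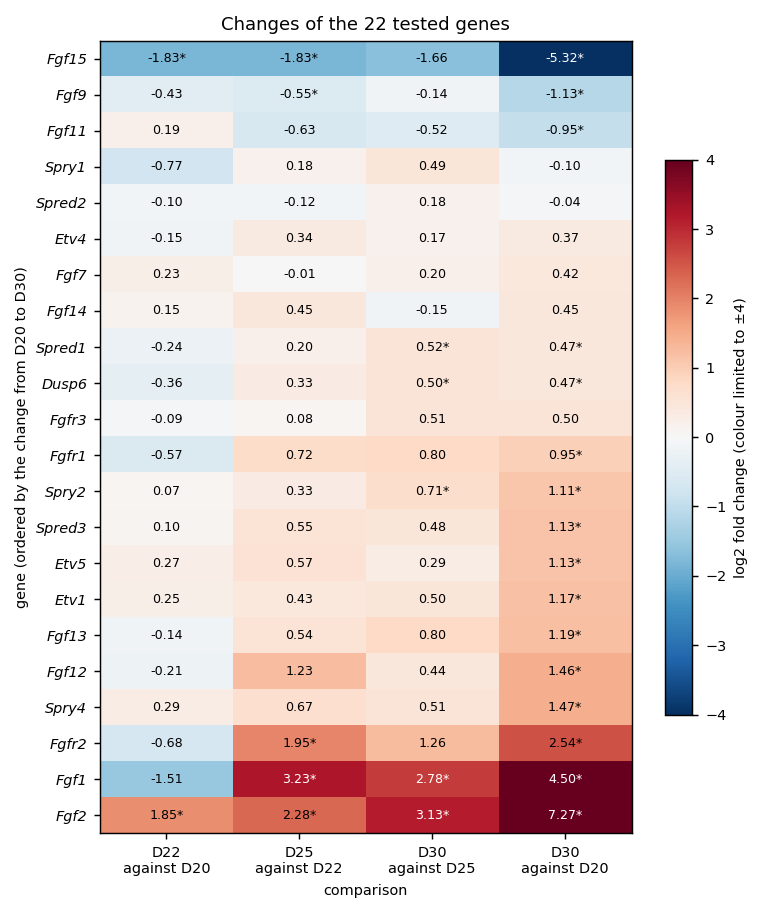
Log2 fold changes of the 22 tested genes in the 3 consecutive steps and over the whole interval, later against earlier day, with red for higher and blue for lower and an asterisk where the adjusted p was below 0.01. Fgf15 stands at one end (-5.32 from D20 to D30) and Fgf2 at the other (7.27), and 16 of the 22 genes carry an asterisk in the last column.

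The steps were unequal. From D20 to D22, 1 gene rose (Fgf2) and 1 fell (Fgf15), where 2.89% of the tested protein-coding genes rose, 0.912% fell and 1.90% of all features changed. From D22 to D25, 3 rose (Fgf1, Fgf2 and Fgfr2) and 2 fell (Fgf15 and Fgf9), where the shares were 8.66%, 3.02% and 5.28%. From D25 to D30, 5 rose (Fgf1, Fgf2, Spry2, Spred1 and Dusp6) and none fell, where the shares were 5.35%, 3.03% and 3.51%. At an unadjusted p below 0.05, 2 genes were lower in this last step (Fgf15 and Fgf11). DESeq2 called the same 5 genes and Fgfr1, all higher, and Fgf15 was called lower without the filter on low counts and when only D25 and D30 were fitted.

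Fgf15, the mouse counterpart of human FGF19 and a ligand known from retinal progenitors, was on average the most abundant extracellular ligand at D20 per exon length. Its gene lies on chromosome 7 (chr7:144896531-144900953, plus strand, GRCm38). The lowest, median and highest level of Fgf15 in the 6 organoids was 25.3, 77.0 and 131 CPM at D20, 2.70, 22.7 and 38.9 CPM at D22, 2.51, 4.78 and 14.5 CPM at D25, and 1.39, 1.745 and 3.30 CPM at D30. Neighbouring days overlapped, while every D30 organoid lay below every D20 organoid. Fgf15 fell by 1.83 on the log2 scale (SE 0.39, adjusted p = 0.0045) from D20 to D22 and again by 1.83 (SE 0.41, adjusted p = 0.0031) from D22 to D25. Over the whole interval it fell by 5.32 (SE 0.48, adjusted p = 2.3e-10), which is 40.1-fold. The D20 to D22 call was lost when D20 replicate 1, 2 or 3 or D22 replicate 2 or 4 was left out, and the D22 to D25 call without D22 replicate 6 or D25 replicate 4. The antisense gene Gm26793 covers 24.9% of the exon bases of Fgf15 and holds 1426 counts in the 24 organoids against 9515 for Fgf15, and the sources used here do not state whether counting was by strand, so the counts of this pair are uncertain. At D20 Gm26793 held 503 counts against 6794 of Fgf15, and at D30 it held 251 against 190.

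On chromosome 7, Fgf4 stands 31.3 kb from Fgf15, and Fgf3 lies beyond Fgf4 and 2.9 kb from it. Both were sparse, with 9 counts of Fgf4 in all 24 organoids and 142 of Fgf3, of which 85 were at D20, and neither reached the filter.

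Fgf9, a ligand that promotes neural retina over pigment epithelium, had the other large share of ligand transcripts at D20. The lowest, median and highest level of Fgf9 was 47.9, 54.6 and 59.3 CPM at D20, 33.0, 40.8 and 44.6 CPM at D22, 22.5, 28.1 and 30.5 CPM at D25, and 17.6, 22.8 and 35.9 CPM at D30. Its organoids were close to each other within a day, and D20, D22 and D25 did not overlap. Fgf9 fell by 0.55 on the log2 scale (SE 0.13, adjusted p = 0.0047) from D22 to D25 and by 1.13 (SE 0.13, adjusted p = 3.7e-08) from D20 to D30, while D22 against D20 was not past the threshold and D30 overlapped D25. The D22 to D25 call was lost without D22 replicate 1 or 6 or D25 replicate 1, 3 or 6, without the filter on low counts and with edgeR's filterByExpr.

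Fgf2, basic FGF, is a ligand without a classical signal peptide that is known from Müller glia, photoreceptors and the injured retina. Its gene is at chr3:37348346-37410108 on the plus strand (GRCm38). At D20 the 6 organoids held between 3 and 22 counts of Fgf2, and at D30 between 1532 and 3094. The lowest, median and highest level was 0.202, 0.8905 and 1.565 CPM at D20, 1.22, 1.99 and 7.295 CPM at D22, 13.2, 14.4 and 22.0 CPM at D25, and 98.7, 139.6 and 179.2 CPM at D30. D20 and D22 overlapped, and from then on every organoid lay above all organoids of the earlier days. Fgf2 rose in each step, with log2 fold changes of 1.85 (SE 0.36, adjusted p = 0.0020) to D22, 2.28 (SE 0.29, adjusted p = 6.5e-06) to D25 and 3.13 (SE 0.28, adjusted p = 5.2e-09) to D30. The whole change was 7.27 (SE 0.36, adjusted p = 1.4e-15), or 154-fold. The call to D22 was lost without D22 replicate 3 and when only D20 and D22 were fitted. The antisense gene Nudt6 shares 9.44% of the exon bases of Fgf2 and holds 489 counts against 15595. At D20, however, Nudt6 held 92 counts in the 6 organoids against 78 of Fgf2, and at D30 it held 230 against 13669, so that the level of Fgf2 at D20, and with it the fold change, is uncertain for the same reason of strand.

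Fgf1, acidic FGF, binds all FGF receptors and also lacks a classical signal peptide. It was close to the counting limit at first, with counts in 4 of 6 organoids at D20 (highest 1.73 CPM) and in 3 of 6 at D22 (highest 0.432 CPM). It had 0.767, 1.72 and 2.08 CPM as the lowest, median and highest level at D25 and 2.72, 10.97 and 18.9 CPM at D30. D25 lay above D22, and D30 above D25, without overlap. Fgf1 rose by a log2 fold change of 3.23 (SE 0.75, adjusted p = 0.0043) from D22 to D25, of 2.78 (SE 0.57, adjusted p = 0.0016) from D25 to D30, and of 4.50 (SE 0.64, adjusted p = 1.4e-06) over the whole interval. The last value was 5.66 without D20 replicate 6, and the D22 to D25 call was lost without D22 replicate 1 or 4.

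**Figure D2:**
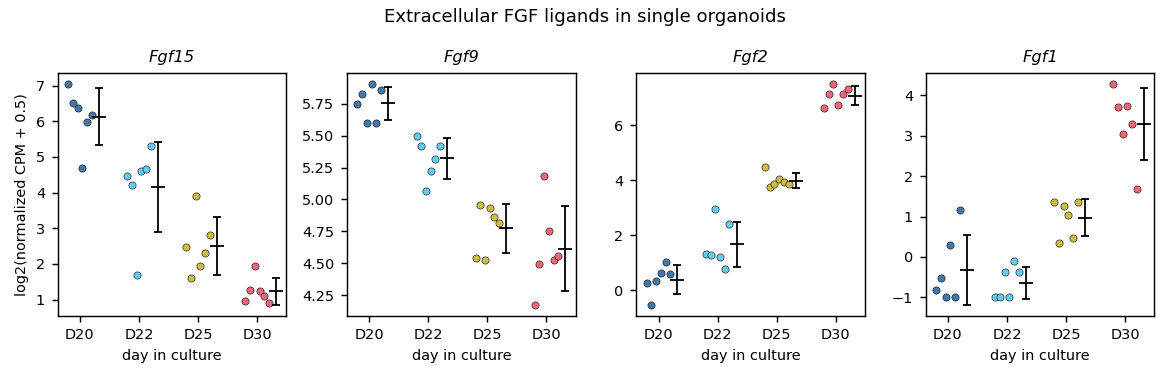
Levels of 4 extracellular ligands as log2(normalized CPM + 0.5) by day in culture, each point 1 organoid, with the mean and SD of the 6 beside them and a separate scale for each gene. Fgf15 and Fgf9 go down with the days, and Fgf2 goes from at most 1.565 CPM at D20 to at least 98.7 CPM at D30.

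The mix of ligand transcripts changed with the days. Summed over the 18 Fgf genes other than Fgf11 to Fgf14, the level per kilobase of exon was 38.6 ± 11.5 CPM at D20 (SD, n = 6, here and for the following), went down to 17.0 ± 4.64 CPM at D22 and 11.7 ± 0.683 CPM at D25, and stood at 29.4 ± 5.35 CPM at D30. In the order of the days, Fgf15 held on average 62.5%, 38.4%, 16.5% and 2.1% of this sum, Fgf9 held 32.7%, 52.7%, 49.9% and 17.9%, and Fgf2 held 0.392%, 3.37%, 19.7% and 68.3%. Fgf1 reached 7.18% at D30. The low total at D25 thus falls between days led on average by Fgf15 and by Fgf2, with Fgf9 the largest part on average at D22 and D25. Single organoids could differ. In D20 replicate 4, Fgf9 was above Fgf15 (12.76 against 8.263 CPM per kilobase), and in D22 replicate 6, Fgf15 was above Fgf9 (12.73 against 9.087). The shares describe RNA, rest on exon lengths from the annotation, and were not tested.

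**Figure D3:**
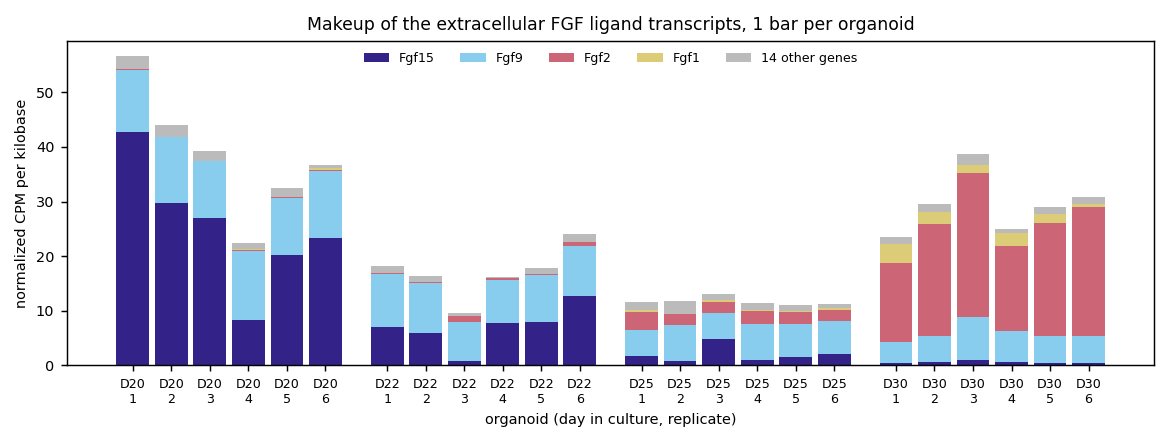
Stacked levels of the extracellular ligand genes in normalized CPM per kilobase of exon, 1 bar per organoid. Fgf15 and Fgf9 fill nearly all of the bars at D20 (62.5% and 32.7% on average), Fgf9 is the largest part on average at D22 and D25, and Fgf2 makes up 68.3% on average at D30.

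The remaining ligands were low. Fgf7, a ligand of epithelial cells, was tested and had mean levels between 0.750 and 1.01 CPM in the 4 groups, with no call. The other 13 ligand genes did not reach the filter, with totals over the 24 organoids of 1 count for Fgf8, 4 for Fgf6, 8 for Fgf20, 9 for Fgf16, 16 for Fgf22, 38 for Fgf17, 39 for Fgf5, 53 for Fgf21, 100 for Fgf10, 110 for Fgf23 and 151 for Fgf18, besides Fgf3 and Fgf4. Fgf8, known from the optic stalk and the early eye field, was thus at 0 counts in 23 of the 24 organoids. For Fgf10, the 100 counts were 1 at D20, then 19 at D22, then 30 at D25 and 50 at D30. Without the filter on low counts, Fgf10 was called higher at D30 than at D20, and Fgf3 was called in the joint test.

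The intracellular FGF homologous factors Fgf11 to Fgf14 carry the family name but are not secreted, and they bind voltage-gated sodium channels of neurons. They did not move together, as 1 fell, 2 rose and 1 was not called over the interval. Of the tested protein-coding genes, 28.8% rose and 16.5% fell over it. Fgf11 had 59.6, 76.8 and 94.7 CPM as the lowest, median and highest level at D20, 58.5, 81.95 and 126.8 CPM at D22, 39.4, 55.65 and 86.5 CPM at D25, and 25.4, 37.7 and 57.6 CPM at D30. Every D30 organoid was below every D20 organoid, and the fall of Fgf11 was 0.95 on the log2 scale (SE 0.21, adjusted p = 0.00042). Fgf12 had 7.90, 11.3 and 13.6 CPM at D20, 4.17, 9.97 and 14.8 CPM at D22, 15.5, 17.3 and 42.2 CPM at D25, and 8.20, 36.3 and 46.5 CPM at D30. Its D25 organoids were all above those of D22, though without passing the threshold, which the step did pass without the filter on low counts, with the replicate number as a block, with D22 and D25 alone, and without D22 replicate 2 or D30 replicate 5 or 6, and at D30 replicates 5 and 6 (14.6 and 8.20 CPM) stayed within the range of D20 or just above it. Fgf12 rose by 1.46 (log2, SE 0.33, adjusted p = 0.00069) from D20 to D30. Fgf13 had 6.71, 11.2 and 16.2 CPM at D20, 7.33, 10.02 and 14.2 CPM at D22, 10.3, 14.8 and 18.1 CPM at D25, and 7.87, 27.6 and 41.3 CPM at D30, and it rose by 1.19 (SE 0.26, adjusted p = 0.00041) over the interval, with overlap between D20 and D30. Fgf14 averaged 11.1 ± 3.02 CPM (SD, n = 6) at D20 and 15.2 ± 6.61 CPM at D30, which was not past the threshold.

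The receptors differed in their course. Fgfr1, the receptor with the highest level at D20 and D30 per exon length (1.79 and 3.45 CPM per kilobase), had 11.3, 16.7 and 26.9 CPM as the lowest, median and highest level at D20, 10.5, 11.5 and 13.9 CPM at D22, 14.8, 19.5 and 26.9 CPM at D25, and 14.8, 32.2 and 53.8 CPM at D30. D25 lay above D22 without overlap but not past the threshold, and D30 overlapped D20. Fgfr1 rose by 0.95 (log2, SE 0.24, adjusted p = 0.0018) from D20 to D30, a call lost when only these 2 timepoints were fitted. Fgfr2, whose splice forms set which FGFs it binds, had 2.70, 4.19 and 6.40 CPM at D20, 0.878, 2.57 and 5.04 CPM at D22, 6.89, 10.8 and 15.8 CPM at D25, and 12.3, 25.0 and 46.4 CPM at D30. Its levels at D25 were all above those at D20 and D22. Fgfr2 rose by 1.95 (SE 0.36, adjusted p = 0.00056) from D22 to D25 and by 2.54 (SE 0.36, adjusted p = 1.2e-06), or 5.80-fold, from D20 to D30. Of its exon bases, 3.04% are shared with the well expressed Ctbp2 on the same strand, and gene counts do not tell its splice forms apart.

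Fgfr3 had 6.05, 9.84 and 13.2 CPM at D20, 5.93, 8.50 and 13.6 CPM at D22, 8.61, 9.49 and 10.7 CPM at D25, and 1.72, 12.8 and 25.7 CPM at D30. Its D30 organoids thus reached both below and above those of all earlier days, and no comparison passed the threshold. Fgfr4 was under the filter, with 227 counts in all. Its highest organoid had 46 counts at D20, then 18, 8 and 6 on the later days, and the mean went from 1.65 CPM at D20 to 0.572, 0.190 and 0.107 CPM. Without the filter on low counts, and with filterByExpr, Fgfr4 was called lower at D30 than at D20. Fgfr4 held on average 10.6% of the receptor sum per kilobase at D20 and 0.685% at D30, while Fgfr2 held 10.7% and 33.5% and Fgfr1 held 45.0% at both.

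**Figure D4:**
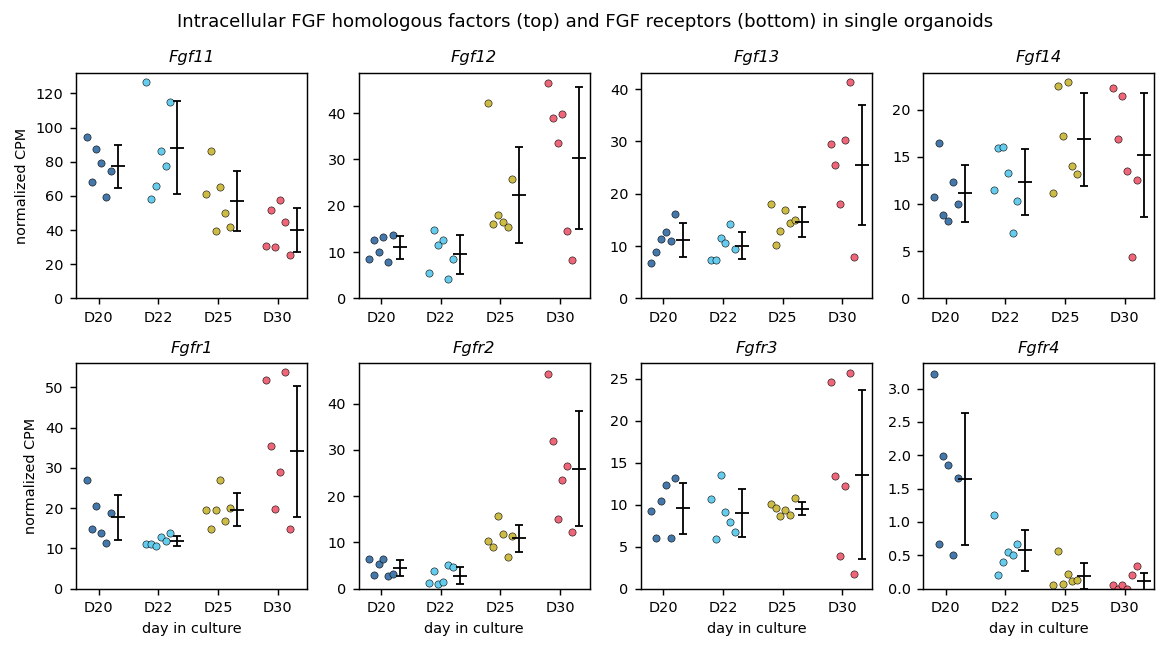
Levels of Fgf11 to Fgf14 and of the 4 receptors in normalized CPM by day in culture, each point 1 organoid, with the mean and SD of the 6 beside them and a separate scale from 0 for each gene. Fgf11 goes down while Fgf12, Fgf13, Fgfr1 and Fgfr2 go up, and Fgfr3 spreads from 1.72 to 25.7 CPM at D30.

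The SD of Fgfr1, Fgfr2 and Fgfr3 between organoids was largest at D30 (16.2, 12.4 and 10.04 CPM), and glial and telencephalic markers also varied there. The telencephalon sum ranged from 10.4 to 255.4 CPM at D30, but from 9.69 to 354.2 CPM at D25, where Fgfr3 had an SD of 0.808 CPM. In D25 replicate 1, at 354.2 CPM of this sum, Fgfr1, Fgfr2 and Fgfr3 were at 19.45, 10.31 and 10.07 CPM. D30 replicates 2 and 4 had telencephalon sums of 182.1 and 207.4 CPM, with Fgfr3 at 13.4 and 12.25 CPM. In D30 replicates 1 and 5, Fgfr1 was at 51.7 and 53.8 CPM, Fgfr2 at 46.4 and 26.5 CPM (31.9 CPM in replicate 2), Fgfr3 at 24.6 and 25.7 CPM, the Müller glia sum at 4255 and 3117 CPM, the astrocyte and oligodendrocyte sum at 2364 and 2308 CPM, and the telencephalon sum at 241.6 and 255.4 CPM. In D30 replicate 6, Fgfr1 was at 14.8 CPM, Fgfr2 at 12.3 CPM, Fgfr3 at 1.72 CPM, and the 3 sums at 1347, 170.7 and 10.4 CPM, the lowest of the 6 organoids for each of these values. The ranges of the sums at D20 were 510.8 to 701.3, 73.4 to 99.2 and 14.4 to 240.2 CPM. Of the astrocyte and oligodendrocyte markers, Gfap had the highest mean over the 24 organoids (271 CPM). Aldh1l1, S100b and Olig1 were at 0 counts in at least 1 of the 24 organoids. Fgf2 had another order, with its lowest D30 level in replicate 1 (98.7 CPM) and 160.5 CPM in replicate 6. The photoreceptor sum was also lowest in replicate 1 (3177 CPM) and was 5512 CPM in replicate 6, and the pigment epithelium sum ranged from 47.4 to 2748 CPM, with 378.3 CPM in replicate 1 and 2542 CPM in replicate 6. Of the pigment epithelium markers, Ttr had the highest mean over the 24 organoids (322.6 CPM, next Dct at 101.1 CPM), while Rpe65 had at most 3 counts. From D20 to D30, 2 of the 7 tested markers of this list rose and 2 fell, so the sum does not show pigment epithelium. Without D30 replicate 6, the step from D25 to D30 had 8 called genes in place of 5, with Fgfr1, Fgfr2 and Fgf13 added. The part of these cell types in the levels of the receptors and of Fgf2 was not tested.

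Of the 8 feedback inhibitors, 7 were tested and 5 rose from D20 to D30, where 28.8% of the tested protein-coding genes rose and 16.5% fell. Over this interval none fell by edgeR, whether adjusted or at an unadjusted p below 0.05, nor by DESeq2. In the step from D20 to D22, Spry1 and Dusp6 were lower at an unadjusted p below 0.05 by edgeR, without passing the threshold, and no inhibitor was higher. Spry3 had no count in any organoid. It is the only gene of the set that the annotation places on a scaffold outside the chromosomes, and how reads on that scaffold were handled is not given in the sources used here, so no limit on its expression follows. Per exon length the inhibitors were led by Spred1, Spry2 and Dusp6 at each end of the interval, with 12.8, 9.31 and 6.69 CPM per kilobase at D20 and 17.7, 20.1 and 9.26 at D30.

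Spry2, a Sprouty protein that holds back RAS activation downstream of receptors, had 16.7, 18.6 and 24.5 CPM as the lowest, median and highest level at D20, 14.5, 18.2 and 28.8 CPM at D22, 17.4, 25.8 and 30.7 CPM at D25, and 35.9, 40.5 and 53.6 CPM at D30. All D30 organoids were above those of every earlier day. Spry2 rose by 0.71 (log2, SE 0.16, adjusted p = 0.0038) from D25 to D30 and by 1.11 (SE 0.16, adjusted p = 1.7e-06) from D20 to D30. The former call was lost without D25 replicate 2 or D30 replicate 3.

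Dusp6, the ERK phosphatase often read as a marker of active ERK signalling, had 17.7, 19.1 and 30.0 CPM at D20, 14.5, 15.8 and 19.8 CPM at D22, 18.4, 20.8 and 22.6 CPM at D25, and 25.1, 28.6 and 32.2 CPM at D30. D30 lay above D22 and D25 without overlap, while D20 replicate 2 (30.0 CPM) reached into the D30 range. Dusp6 rose by 0.50 (log2, SE 0.12) from D25 to D30 with an adjusted p of 0.0099997, just under the threshold, and by 0.47 (SE 0.12, adjusted p = 0.0033) from D20 to D30. The former call was lost in 19 of 24 fits that left out 1 organoid, and kept only without D20 replicate 2, D22 replicate 2 or 3, D25 replicate 1 or D30 replicate 6. It was also lost without the filter on low counts and with filterByExpr. The latter was lost without D20 replicate 5 or 6, without the filter and when only D20 and D30 were fitted.

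Spred1, a Spred protein that restrains RAS together with neurofibromin, had 77.65, 83.8 and 101.8 CPM at D20, 60.9, 71.7 and 86.5 CPM at D22, 68.6, 83.85 and 98.5 CPM at D25, and 73.4, 122.9 and 164.8 CPM at D30. It had the highest level of the inhibitors in CPM, and its D30 organoids overlapped all earlier days through replicate 6. Spred1 rose by 0.52 (log2, SE 0.13, adjusted p = 0.0099) from D25 to D30 and by 0.47 (SE 0.13, adjusted p = 0.0043) from D20 to D30. The former was lost in 18 of 24 fits that left out 1 organoid, kept only without D22 replicate 2, 3 or 6, D25 replicate 1 or D30 replicate 4 or 6. It was also lost without the filter on low counts, with filterByExpr, with the replicate number as a block and with D25 and D30 alone. The latter was lost without D20 replicate 1, 3 or 4 or D30 replicate 1 or 2, with annotated genes alone and with D20 and D30 alone.

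Spred3 had 6.92, 8.19 and 8.93 CPM at D20, 4.54, 8.53 and 11.7 CPM at D22, 9.27, 12.8 and 15.0 CPM at D25, and 15.3, 16.9 and 23.8 CPM at D30, and rose by 1.13 (log2, SE 0.18, adjusted p = 6.3e-06) from D20 to D30. All of its D30 organoids were above all others. Spry4 had 1.61, 2.39 and 5.21 CPM at D20, 1.47, 3.27 and 5.68 CPM at D22, 3.14, 5.62 and 6.25 CPM at D25, and 3.49, 7.07 and 11.1 CPM at D30, with overlap between D20 and D30, and rose by 1.47 (SE 0.31, adjusted p = 0.00037) over the interval. Spry1 averaged 5.18 ± 0.900 CPM (SD, n = 6) at D20, and 3.03 ± 1.02, 3.43 ± 1.06 and 4.84 ± 0.817 CPM on the later days, and Spred2 stayed between means of 7.46 and 8.72 CPM. Neither gene was past the threshold by edgeR between any pair of days compared.

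The ETS factors Etv1, Etv4 and Etv5 are transcription factors whose genes are commonly switched on by FGF signalling. Over the interval 2 of the 3 rose, where 28.8% of the tested protein-coding genes rose. Etv1 had 3.99, 5.62 and 7.39 CPM at D20, 4.05, 6.25 and 9.86 CPM at D22, 5.30, 9.34 and 12.3 CPM at D25, and 5.88, 12.7 and 20.8 CPM at D30. Its groups overlapped, and the rise from D20 to D30 was 1.17 (log2, SE 0.26, adjusted p = 0.00049). Etv5 had 3.77, 5.77 and 8.13 CPM at D20, 3.73, 5.94 and 14.6 CPM at D22, 8.99, 10.6 and 14.1 CPM at D25, and 8.20, 14.1 and 16.9 CPM at D30. Its D30 organoids were all above those of D20, and the rise was 1.13 (SE 0.25, adjusted p = 0.00050). Etv4 was low, with means between 1.11 and 1.59 CPM and no call.

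**Figure D5:**
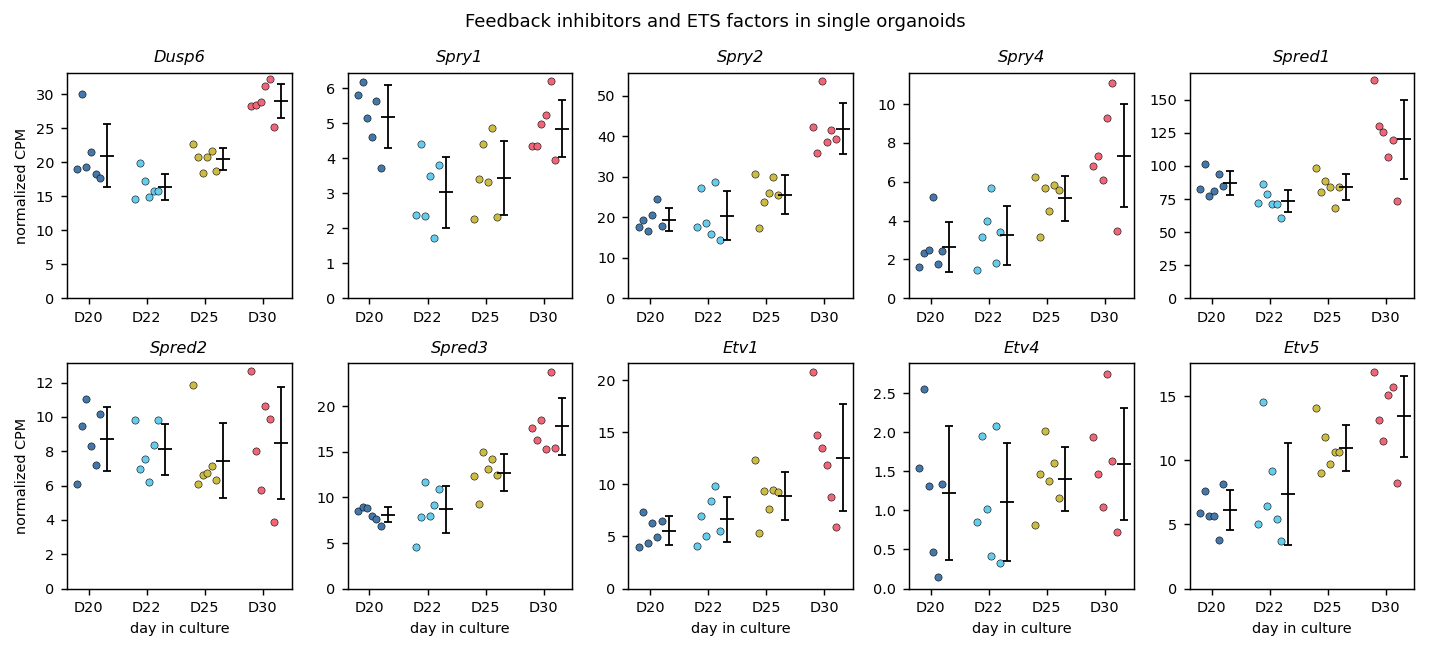
Levels of the 7 counted feedback inhibitors and the 3 ETS factors in normalized CPM by day in culture, each point 1 organoid, with the mean and SD of the 6 beside them and a separate scale from 0 for each gene. All D30 organoids stand above those of every earlier day for Spry2 and Spred3, while Spry1 and Spred2 were not past the threshold between days by edgeR.

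Whether the feedback genes followed Dusp6 from organoid to organoid was examined in the 24 organoids after the mean of each timepoint was removed on the log2(CPM + 0.5) scale. Pearson's r with Dusp6 was 0.25 for Spry2, 0.31 for Spry4, 0.46 for Etv4 and 0.47 for Etv5, and Spearman's rho was 0.30, 0.42, 0.34 and 0.36. The permutation p was 0.24, 0.183, 0.0759 and 0.0279 for r, or 0.24, 0.24, 0.152 and 0.112 after adjustment over the 4 relations, and 0.167, 0.0513, 0.135 and 0.104 for rho, each 0.167 after adjustment. No relation passed 0.05 after adjustment. Without the 2 organoids farthest from the median of Dusp6, r was 0.18, 0.49, 0.18 and 0.27. Within single timepoints (n = 6), r ranged from -0.54 (Etv4 at D25) to 0.97 (Spry4 at D30, exact permutation p = 0.00694, adjusted over 16 such relations 0.111).

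The promoters of a rising pair of inhibitors and of a falling ligand are shown so that their letters can be compared. Capitals mark GGAA or its reverse complement TTCC, the core of the sites that ETS factors bind, in the 250 bases before the RefSeq start on the gene's strand (GRCm38.p6), and each window lies outside annotated exons. For Fgf9, a longer annotated transcript begins further upstream, at position 58070547, so that its window lies in an intron of that transcript. Entries were found for 27 of the 37 genes. Dusp6 (chr10:99262981-99263230, plus strand) has 6 matches, Spry2 (chr14:105896820-105897069, minus strand) 3, and Fgf9 (chr14:58072436-58072685, plus strand) 2.
Dusp6: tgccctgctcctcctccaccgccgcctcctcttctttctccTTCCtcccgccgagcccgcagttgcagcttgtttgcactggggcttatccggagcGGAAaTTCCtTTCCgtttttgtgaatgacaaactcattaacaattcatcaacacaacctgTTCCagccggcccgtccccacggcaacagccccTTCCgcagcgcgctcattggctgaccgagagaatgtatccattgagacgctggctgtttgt
Spry2: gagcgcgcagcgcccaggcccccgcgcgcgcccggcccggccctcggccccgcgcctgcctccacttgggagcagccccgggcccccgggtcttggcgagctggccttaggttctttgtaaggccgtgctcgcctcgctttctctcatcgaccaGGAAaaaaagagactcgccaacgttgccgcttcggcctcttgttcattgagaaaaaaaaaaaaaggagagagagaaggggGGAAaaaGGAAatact
Fgf9: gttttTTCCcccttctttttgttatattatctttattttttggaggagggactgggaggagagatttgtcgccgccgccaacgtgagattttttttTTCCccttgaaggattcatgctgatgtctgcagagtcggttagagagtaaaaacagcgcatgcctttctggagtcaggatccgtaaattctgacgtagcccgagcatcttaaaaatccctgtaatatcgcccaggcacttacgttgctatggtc
A match on either strand was found in 93.4% of 32851 promoter windows of this length, with a median of 3 per window, so that its presence does not set these genes apart. The longer CCGGAA, which contains GGAA and was found in 12.0% of windows, and the GC box GGGCGG, found in 32.7%, occur in none of the 3. The windows have a GC content of 56.4%, 62.4% and 44.8%.

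Other genes of the pathway were taken from 4 lists. From D20 to D30 their members moved in both directions, and their counts are to be read against the 28.8% of tested protein-coding genes that rose and the 16.5% that fell, a difference that was not tested. Of 16 tested co-receptors and surface partners, 5 rose and 2 fell. Of the 4 syndecans, which carry heparan sulfate, 3 rose, with log2 fold changes of 0.82 for Sdc2 (adjusted p = 2.2e-05), 1.37 for Sdc3 (adjusted p = 7.9e-05) and 0.89 for Sdc4 (adjusted p = 4.4e-06), while Sdc1, at 7.92 CPM at D20 and 5.22 CPM at D30 on average, was not called. Gpc5 also rose with 2.77 (adjusted p = 0.0030). Gpc2, a glypican of developing neurons, fell by 1.59 (adjusted p = 8.1e-09), and Fgfrl1, a receptor-like protein without a kinase, fell by 0.90 (adjusted p = 0.0073). Of 14 heparan sulfate enzymes, 3 rose and 1 fell. Ext1, which builds the chain, rose by 0.79 (adjusted p = 1.6e-07), Ndst1, which starts its sulfation, by 0.80 (adjusted p = 6.3e-06) and Sulf1, which removes sulfate, by 1.71 (adjusted p = 1.4e-07), while Glce, an epimerase of the chain, fell by 0.96 (adjusted p = 3.5e-08).

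Of 23 adaptors and kinases of the ERK cascade, 7 rose and 3 fell. The scaffold Ksr2 rose by 1.66 (adjusted p = 1.0e-06), the phosphatase Ptpn11 by 0.55 (adjusted p = 1.2e-05), the adaptor Grb2 by 0.80 (adjusted p = 0.00012) and the kinase Araf by 0.44 (adjusted p = 0.00013) on the log2 scale. Among 7 other phosphatases of MAP kinases, 1 rose and 3 fell. Dusp8 rose by 0.94 (adjusted p = 3.9e-07), whereas Dusp16, which acts on JNK and p38, fell by 1.69 (adjusted p = 8.8e-15), Dusp4 by 0.68 (adjusted p = 0.0056) and Dusp1 by 0.74 (adjusted p = 0.0098). These phosphatases are not among the 7 tested feedback inhibitors.

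Ordered by level per kilobase of exon, the 37 genes at D20 began with Fgf11 (25.4 ± 4.19 CPM per kilobase, SD, n = 6) and Fgf15 (25.2 ± 11.4), followed by Spred1, Fgf9, Spry2 and Dusp6, and each neighbour in this order overlapped the next. Dusp6 did not overlap Fgf13, the next gene down. At D30 the order began with Fgf2 (20.2 ± 4.58), Spry2 (20.1 ± 2.96), Spred1 (17.7 ± 4.42), Fgf11 (13.2 ± 4.31) and Dusp6 (9.26 ± 0.793), again with overlap between neighbours. Fgf2 thus went from place 25 to place 1 and Fgf15 from place 2 to place 20. With the length of the longest annotated transcript in place of all exons, Fgf15 at D20 was at 42.6 CPM per kilobase.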

How the data were processed

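Total RNA of single organoids was depleted of ribosomal RNA and sequenced from strand-specific libraries. The authors trimmed the reads with cutadapt (version 1.5, per the submitters' processing notes), aligned them to GRCm38/mm10 with HISAT2, assembled transcripts with StringTie (version 1.3.3) and counted reads per feature with HTSeq (version 0.6.1). The deposited values are these raw counts. Whether counting used the strand is not given in the sources used here. Features whose mean count, scaled by DESeq2 size factors, reached 10 were tested with edgeR (version 4.0.16) in R (version 4.3.3), with TMM normalization, in 1 quasi-likelihood fit of all 24 organoids, while the study used DESeq2. Standard errors were derived from the test statistic. Gene models were GENCODE and promoters RefSeq, both of GRCm38. The genes and lists were chosen with earlier results of these data known. All genes of the set were accounted for, fold changes are printed only where past 0.01, and at most 6 genes per further list were named by smallest adjusted p. Some genes that this rule would name are not reported here. Groups and replicate numbers came from the sample labels. Alternatives were DESeq2 (version 1.42.0), its size factors in edgeR, no filter, filterByExpr, annotated genes only, a replicate block, only the compared timepoints and the omission of each organoid. The scripts were tested on simulated data. No pair of libraries was alike within sampling noise. Permutation tests of correlations used 100000 resamples, or all orders within a timepoint.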

Additional observations from a re-analysis of the deposited data

Results flagged for a closer look

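Dixon's criterion for 6 samples was applied to CPM without a logarithm. It set 1 organoid apart from the other 5 of its day in 8 of 88 combinations of a tested gene and a day. For normally distributed values chance alone flags about 1 in 20, a rate that need not hold on this scale. All 8 were high values. Dusp6 had 29.96 CPM in D20 replicate 2, with the next at 21.57 CPM. Fgf15 had 14.54 CPM in D25 replicate 3 (next 6.467) and 3.301 CPM in D30 replicate 3 (next 1.896). Fgf2 had 22.0 CPM (next 15.88), Fgf7 1.621 CPM (next 0.9064) and Spred2 11.87 CPM (next 7.132), all in D25 replicate 1, the D25 organoid with the highest telencephalon sum (354.2 CPM). Spry2 had 53.58 CPM in D30 replicate 3 (next 42.37), which was also the D30 organoid with the most Fgf2, and Spry4 had 5.212 CPM in D20 replicate 4 (next 2.476).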

How the results depend on the processing

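The replicate numbers come from the labels but mark different organoids. In 36 pairs of same-numbered organoids the correlation of deviations from the timepoint means ranged from -0.0907 to 0.257 (median 0.0101, 1 pair over 0.1). The median over pairs with different numbers was 0.00443. Whether organoids of the same number shared more than the number was not tested. With the replicate block, the calls from D20 to D22 went from 2 to 1 and those lower from 1 to 0, since Fgf15 was no longer past the threshold. The block also gave 6 calls in place of 5 from D22 to D25 (Fgf12 added) and 4 in place of 5 from D25 to D30 (Spred1 lost), and it changed no call from D20 to D30 or in the joint test. The joint test called 17 genes by DESeq2 (Spry1 added), 18 without a filter (Fgfr4 and Fgf3 added) and 17 with filterByExpr (Fgfr4 added), in place of 16. When only the compared timepoints were fitted, D20 to D22 also gave 1 call, with 0 higher, D22 to D25 gave 5 higher in place of 3, and D25 to D30 gave 1 lower in place of 0. Without a filter, 1 gene fell from D22 to D25 in place of 2, and 1 fell from D25 to D30. With filterByExpr, 1 fell from D22 to D25 and 3 rose from D25 to D30 in place of 5. Within D25, the correlation with Dusp6 turned negative for Spry4 (-0.01) and Etv4 (-0.54).

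With each organoid left out in turn, the calls ranged from 1 to 2 for D20 to D22 (higher 0 to 1, lower 0 to 1), from 3 to 7 for D22 to D25 (higher 2 to 5, lower 0 to 2), and from 2 to 8 for D25 to D30 (higher 2 to 8, lower 0 to 1). D20 to D22 had 1 call without D20 replicate 1, 2 or 3 or D22 replicate 2, 3 or 4, D22 to D25 had 3 without D22 replicate 1 or 6, and D25 to D30 had 2 without D25 replicate 2 or D30 replicate 3. For D20 to D30, the omissions left 15 to 16 calls. No log2 fold change printed for a gene of the set changed its sign under any alternative. Another scaling moved the median of all features by at most 0.09 (log2). Genes near 10 counts per organoid, Fgf1 before D25 among them, are limited by depth.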
